A study of Mus musculus with 4 samples.

Results

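T-box, Pitx, Hand and Emx genes encode transcription factors that pattern the embryo along its axes and in its organs. The 9 genes described here are Tbx2, Tbx3, Tbx4, Tbx5, Tbx15, Tbx18, Pitx1, Hand2 and Emx2. They were read by every gene probe that carries one of these names on the array, which were 17 of 41174 probes and 9 of 27745 gene names. The cells were mouse embryonic fibroblasts (MEFs), connective-tissue cells grown from mid-gestation embryos and taken in logarithmic growth. A culture from CycG1-/- mice (G1KO), in which all coding exons of the cyclin G1 gene Ccng1 were removed, was compared with a CycG1+/+ wild-type (WT) culture. A culture from CycG2-/- mice (G2KO), which lack cyclin G2, was compared with a CycG2+/+ WT culture. The strain of all 4 cultures was given as C57BL/6J, although the source name of the G2KO pair wrote C57BL/7J, and no treatment was given. Each pair was hybridised together on 2 two-colour arrays with the dyes Cy5 and Cy3 exchanged. There was 1 culture per genotype, so no difference below has a replicate check or a p-value. The part of the embryo taken, the age of the individual embryos and the number pooled were not given in the sources used here.

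T-box proteins bind DNA through a shared domain, the T-box, and act as activators or repressors. Tbx5 marks the forelimb and the heart, while Pitx1 and Tbx4 mark the hindlimb, where Pitx1 acts upstream of Tbx4. Fibroblasts are known to keep part of the positional programme of their body region in culture, which is why these genes serve as marks of origin.

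Values are log2 ratios of knockout over WT, and the ± is the technical SD over both arrays of a comparison. A probe was counted as measured when it was well above background, by the scanner's flag, on both arrays in at least 1 genotype. It was called when it differed at least 2-fold in the same direction on each array. Levels are log2 signals of a culture in each dye and were compared within a probe, since brightness differs between probes. An offset of 50 was added to the signals before the logarithm, which shrinks the ratios of dim probes.

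The targeted genes were checked first. Ccng1 had a log2 ratio of -6.67 ± 0.13 in G1KO at its brighter probe. In the G2KO comparison Ccng1 was higher, by 2.67 ± 0.03 at that probe and 2.49 ± 0.04 at the dimmer one. For Ccng2 the G2KO comparison gave 0.28 and -0.10 on its arrays (0.09 ± 0.27), so the mRNA was not reduced at the single probe. The paper states that MEFs were genotyped by genomic PCR, and it also typed its G2KO MEFs by RT-PCR with Ccng2 primers. Whether the Ccng2 probe on the array lies in the deleted part is not given in the sources used here. The knockout RNA of that pair is therefore called the RNA labelled G2KO, and every direction given for it rests on the label. Xist, the RNA that coats the silenced X, was higher in both knockout RNAs, by 7.54 ± 0.43 and 7.24 ± 0.46. The Y-linked Ddx3y had log2 ratios of -4.97 ± 0.24 and -4.26 ± 0.23. Sex and genotype cannot be told apart in either pair.

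In G1KO, 4 of the 9 genes were called. Tbx3, Pitx1 and Tbx5 were higher than in WT, and Tbx18 was lower. In the RNA labelled G2KO, 2 genes were called, and these were again Tbx3, which was higher, and Tbx18, which was lower. By probe, 5 of the 13 measured in G1KO were called, 3 higher and 2 lower, against 5.79% of the 25541 probes measured on the whole array, with 1.99% higher and 3.8% lower. In the RNA labelled G2KO, 2 of 9 measured probes were called, 1 higher and 1 lower, against 6.37% of 25430 probes, with 2.31% higher and 4.06% lower. The other 4 and 8 probes were too dim to count as measured, so these shares do not describe all 17. Over the brightest probe of each measured gene, the median log2 ratio was 0.32 for 8 genes in G1KO and 0.10 for 5 genes with the RNA labelled G2KO, against medians of 0.00 and -0.01 over all measured probes.

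**Figure D1:**
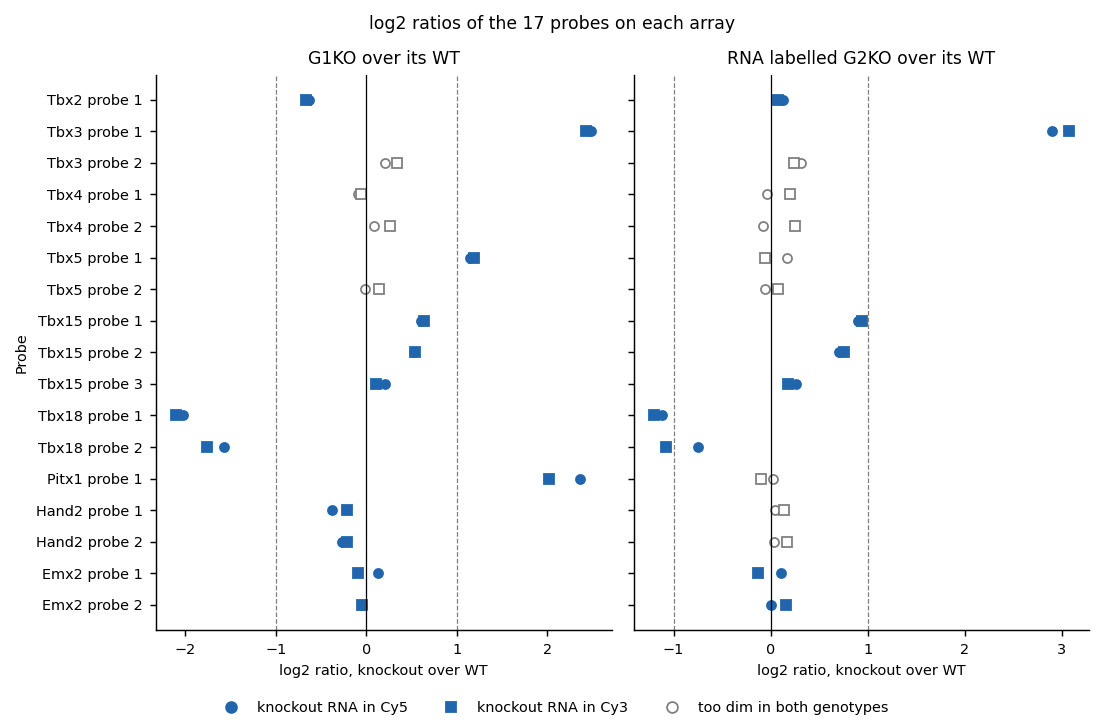
log2 ratio of knockout over WT (horizontal axis) for each of the 17 probes, in the G1KO comparison (left) and for the RNA labelled G2KO (right). Circles are arrays with the knockout RNA in Cy5, squares those with it in Cy3, open grey symbols are probes too dim in both genotypes, and dashed lines mark 2-fold. Tbx3 probe 1 lies above 2-fold and Tbx18 probe 1 below it on all 4 arrays, whereas Pitx1 and Tbx5 pass 2-fold in the G1KO panel alone.

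Tbx3, a repressor needed in the limb and the mammary gland, was high in both knockout RNAs. Its level in the WT of the G1KO pair was 9.15 in Cy5 and 9.1 in Cy3, and in G1KO it was 11.58 in each dye. In the WT of the G2KO pair the level was 8.83 and 8.95, and in the RNA labelled G2KO it was 11.85 and 11.90. Both knockout cultures lay above both WT cultures, with no overlap between dyes. The log2 ratio was 2.46 ± 0.03 in G1KO, which is 5.49-fold, and 2.99 ± 0.12 in the RNA labelled G2KO, which is 7.92-fold. This probe lies on chromosome 5, at chr5:119945081-119945140 on the plus strand (mm8, the build of the array design). The other Tbx3 probe, at chr5:119933349-119933408, did not count as measured, because each knockout RNA was above background there in Cy5 alone and the WT RNAs in neither dye. Its log2 ratios were 0.27 ± 0.09 and 0.28 ± 0.05. On the scanner software's own ratio, which adds no offset, that probe read 2.37 and 2.47 on the G1KO arrays and 2.36 and 2.48 on those of the G2KO pair. With each array centred on its median in place of loess, it read -0.08 and 0.65, and 0.08 and 0.49. With both WT RNAs at background, its ratio thus depends on the treatment of dim signals.

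Tbx18, known from the epicardium, the ureter mesenchyme and the boundaries of somites, had the opposite pattern. Its level was 11.20 and 11.16 in the WT of the G1KO pair against 9.13 and 9.1 in G1KO. It was 11.10 and 11.02 in the WT of the G2KO pair against 9.90 in both dyes in the RNA labelled G2KO. The 2 WT cultures were thus within 0.13 of each other, and both knockout cultures lay below them. The log2 ratio was -2.07 ± 0.05 in G1KO and -1.16 ± 0.06 for the RNA labelled G2KO. This probe lies at chr9:87502625-87502684 on the minus strand, and a dimmer one at chr9:87502862-87502921 gave -1.66 ± 0.14, which was called, and -0.92 ± 0.24, which was not. With each array centred on its median in place of loess, the ratio of the brighter probe for the RNA labelled G2KO was -0.38 and -1.76 on the individual arrays, and the call was lost.

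Markers of mesothelium, the lining of body cavities, moved with the fall of Tbx18 in G1KO. Of 10 such markers, 8 were lower and 1 was higher in G1KO, with a median log2 ratio of -2.83. Further measured probes of Krt8 and Podxl were not called in G1KO, nor was that of Podxl in the other comparison. The summed linear level of the 10 markers was 261309 to 327507 in the WT of the G1KO pair and 57459 to 68053 in G1KO, over the 2 dyes. In the G2KO pair it was 2591 to 2639 in WT and 6859 to 7326 in the RNA labelled G2KO, where 3 of 5 measured markers were higher and 1 was lower. There, Upk3b, Upk1b, Lrrn4, Krt8 and Gpm6a were not well above background in either culture, and Tbx18 was high in WT. The part of these markers in the G1KO result was not tested. In bulk RNA, fewer cells of a type and less RNA per cell cannot be told apart. All 10 fibroblast markers were above background in all 4 cultures. Of them, 6 were lower in the RNA labelled G2KO, namely Col1a1, Col1a2, Col3a1, Thy1, Pdgfra and Dcn. A further measured probe of Col1a1, Col3a1 and Pdgfra each was not called there. The summed level of the 10 fibroblast markers was 834996 to 866029 in the WT of that pair and 323052 to 474834 in that RNA. Of 4 measured neural markers, Sox2 and Nes were higher there. The other measured ones, Tubb3 and Stmn2, had ratios of -0.73 ± 0.16 and -0.71 ± 0.12, short of 2-fold. The summed level of the 6 on the list was 22368 to 22625 against 2605 to 2993 in WT. Nes and Sox2 made up most of the sum in that RNA, at mean levels of 14.02 and 12.35. Among the fibroblast markers in G1KO, Pdgfrb was higher and Dcn lower (-4.05 ± 0.12), although a further measured Dcn probe was not called. The summed level of the fibroblast markers was 665316 to 675043 in WT and 372776 to 535047 in G1KO, with a median log2 ratio of -0.31. S100a4, with the brightest probe of the list in that WT (17.81), read -0.42 and -1.67 on the arrays and was not called. Nes was higher in G1KO too, by 2.34 ± 0.17, while Tubb3, also measured, had 0.23 ± 0.01. The neural sum was 2306 to 2398 in WT and 4411 to 4620 in G1KO. What part these markers had in the ratios of Tbx3 and Tbx18 was not tested. Of 5 endothelial markers, Pecam1 and Cdh5 were not well above background in any culture, and Tek was so in 1 dye of the WT of the G2KO pair alone. Emcn, also of endothelium, had a mean level of 9.30 in the WT of the G1KO pair and a ratio of -2.65 ± 0.08 in G1KO, while Kdr was above background in both cultures of that pair, at 7.95 in WT, with a ratio of 0.06 ± 0.06. Among blood markers, Ptprc and Adgre1 were at background throughout, whereas Cd68 was above it in all 4 cultures, at 6.79 to 6.97.

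Pitx1, which directs hindlimb identity and pituitary development, separated the pairs. Its level was 11.45 and 11.26 in the WT of the G1KO pair and 13.62 and 13.47 in G1KO. In the G2KO pair it was 6.03 and 5.98 in WT and 5.99 and 5.93 in the RNA labelled G2KO, and neither culture was well above background in either dye. G1KO was thus higher than its WT by 2.19 ± 0.24 (4.57-fold), while the log2 ratio in the other pair is one of background signals. Against the WT of the G2KO pair, the WT of the G1KO pair was at least 38.7-fold higher and G1KO at least 177-fold higher. The single probe lies at chr13:55834678-55834737 on the minus strand. Such differences between pairs rest on the normalisation between arrays, and the WT cultures were separate ones.

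Tbx5, the forelimb and heart factor, was above background only in the G1KO culture. Its level there was 7.45 and 7.17, against 5.98 and 6.31 in the WT of that pair. It was 5.88 and 5.87 in the WT of the G2KO pair and 6.04 and 5.82 in the RNA labelled G2KO. G1KO was at least 2.24-fold higher than its WT, with a log2 ratio of 1.16 ± 0.03. This size depends on the treatment of dim signals, since an offset of 0 gave 2.51 and the scanner software's own ratio gave 3.32. The probe lies at chr5:120144695-120144754. A further Tbx5 probe, which spans chr5:120132000-120143562 and so crosses an intron, was not above background in any culture. Tbx3 and Tbx5 are neighbours, with 199.6 kb between their brightest probes, and in the RNA labelled G2KO Tbx3 was called while Tbx5 was not measurable.

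Tbx4, which takes part in hindlimb and lung development, was not well above background at either of its probes in any culture, with mean levels of 5.90 to 6.16. The lowest signals that counted as above background were 5.74 to 6.13, depending on culture and dye. Tbx4 was therefore not detectable in the same cultures in which Pitx1 reached the highest level. Its neighbour Tbx2 lies 70.1 kb away and was above background in all 4 cultures. Tbx2, a repressor close to Tbx3 in sequence, had levels of 7.93 and 7.85 in the WT of the G1KO pair and 7.20 and 7.25 in G1KO. In the G2KO pair it had 7.15 and 7.20 in WT and 7.33 and 7.22 in the RNA labelled G2KO. The WT of the G1KO pair stood above the other cultures, which had mean levels of 7.17 to 7.27. Neither its ratio of -0.66 ± 0.02 in G1KO nor that of 0.10 ± 0.05 for the RNA labelled G2KO reached 2-fold.

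Tbx15, which acts in the trunk and limb skeleton and in dorsal skin, was somewhat higher in both knockout RNAs, and no probe was called. The brightest of its 3 probes (chr3:99483039-99483098) read 10.18 and 10.32 in the WT of the G1KO pair and 10.92 and 10.81 in G1KO. It read 9.65 and 9.70 in the WT of the G2KO pair and 10.60 and 10.59 in the RNA labelled G2KO. Each knockout culture lay above its own WT in both dyes, by 0.62 ± 0.03 and 0.92 ± 0.03. The other probes gave 0.53 ± 0.01 and 0.15 ± 0.06 for G1KO and 0.73 ± 0.04 and 0.22 ± 0.06 for the RNA labelled G2KO. The dimmest of them thus moved least, and all 3 probes had positive ratios on all 4 arrays. On the scanner software's ratio the brightest probe passed 2-fold for the RNA labelled G2KO, at 1.01 and 1.07.

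Hand2 acts in the limb bud, the heart and the branchial arches. It was above background in both cultures of the G1KO pair, at 7.41 and 7.57 in WT and 7.19 in both dyes in G1KO, and in neither culture of the G2KO pair, at 6.10 to 6.26. The WT of the G1KO pair was at least 2.51-fold above that of the G2KO pair at the brighter probe and at least 1.98-fold above it at the other. Within the G1KO pair the ratios were -0.30 ± 0.12 and -0.24 ± 0.05, short of 2-fold. The 2 Hand2 probes overlap (chr8:60214596-60215955 and chr8:60214559-60215918), so they are not separate readings.

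Emx2, a homeobox factor of the urogenital system and forebrain, was above background in all 4 cultures. Its levels were 9.64 and 9.52 in the WT of the G1KO pair and 9.65 and 9.55 in G1KO. They were 8.79 and 8.69 in the WT of the G2KO pair and 8.80 and 8.66 in the RNA labelled G2KO. Knockout and WT overlapped in both pairs, with ratios of 0.02 ± 0.16 and -0.01 ± 0.17, and the pairs stood apart by 0.84 between the WT cultures. The dimmer probe had -0.05 ± 0.00 in G1KO, 0.08 ± 0.11 in the RNA labelled G2KO and 0.69 between the WT cultures. In the G1KO pair it read 7.61 and 7.56 in WT and 7.51 and 7.56 in G1KO, while in the other pair WT read 6.89 and 6.90, just below 6.91 and 7.05 in the RNA labelled G2KO.

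**Figure D2:**
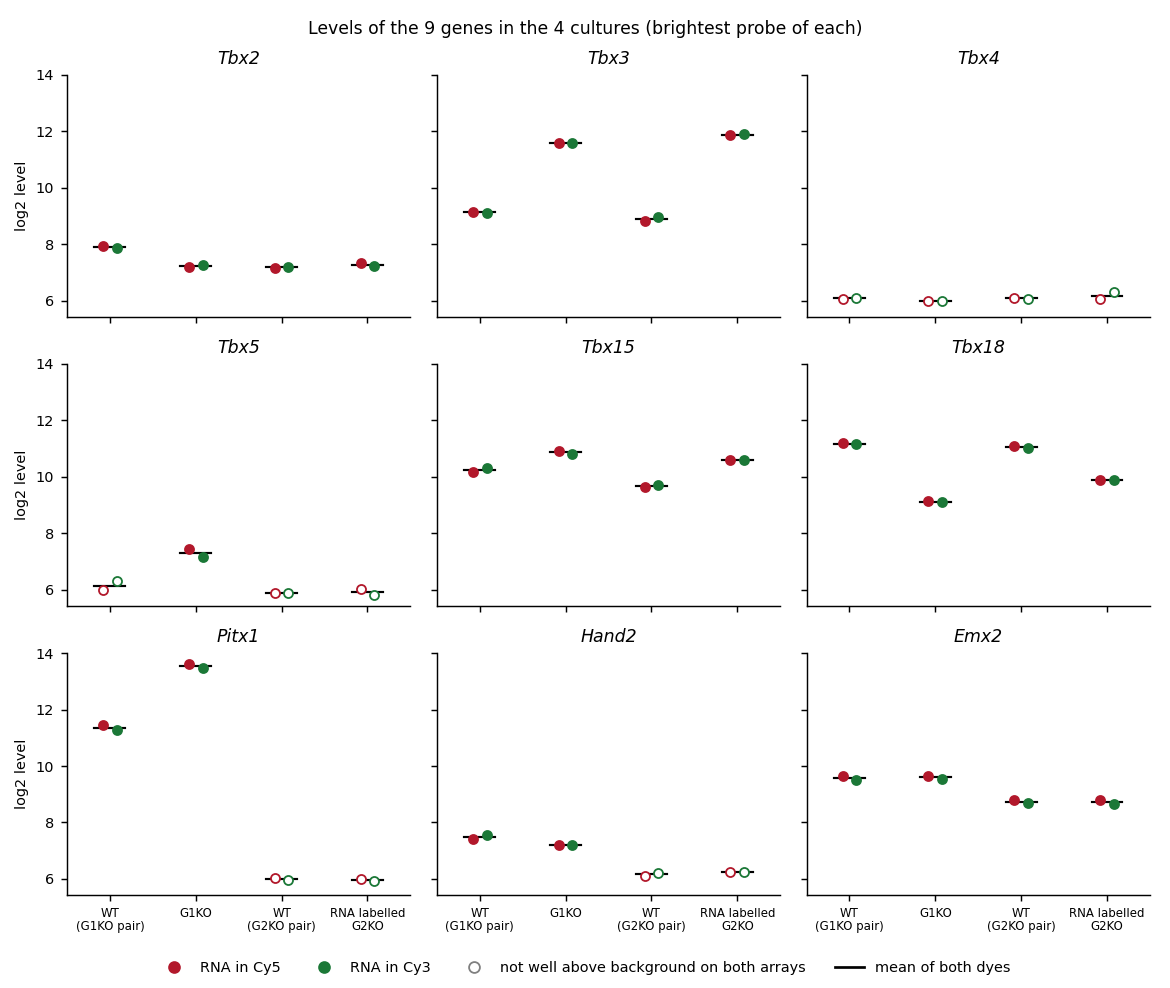
log2 level (vertical axis) of the brightest probe of each of the 9 genes in the 4 cultures, with the RNA in Cy5 (red) and Cy3 (green) and the mean of both as a line. Open symbols are cultures not well above background on both arrays. Tbx3 is high in both knockout cultures and Tbx18 low, Pitx1 is at 11.26 to 13.62 in the G1KO pair and at 5.93 to 6.03 in the G2KO pair, and Tbx4 is at background throughout.

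Set side by side, the 2 WT cultures differed at some of these probes as well, although both are labelled wild type. Of 12 measured probes, 2 were at least 2-fold higher in the WT of the G1KO pair in both dyes, and 0 were lower. These were the Pitx1 probe and the brighter Hand2 probe. The other Hand2 probe differed by 1.16 in Cy5 and 0.81 in Cy3. On the whole array 11.1% of 26033 probes differed by this measure, 5.53% higher and 5.54% lower, so 2 of 12 is not far from that share. Pitx1 and Hand2 were thus present in the G1KO pair and below background in the G2KO pair whatever the genotype, and Emx2 and Tbx2 were higher in the WT of the G1KO pair by 0.84 and 0.71. In contrast, Tbx3 and Tbx18 differed between the WT cultures by 0.23 and 0.13, less than between each knockout and its WT. All 10 mesothelial markers were higher in the WT of the G1KO pair than in that of the G2KO pair, and their part in these differences was not tested.

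The promoters of 4 of the 9 genes were found in the RefSeq table (GRCm38.p6), and 3 are shown because their genes had 3 distinct patterns: Tbx18, lower in both knockout RNAs, Emx2, above background throughout, and Tbx4, at background throughout. Each is the 250 bases before the annotated start, written 5' to 3' on the strand of the gene, and capitals mark matches to the CCAAT box or the TATA box on either strand.
Tbx18 (chr9:87731261-87731510, minus strand): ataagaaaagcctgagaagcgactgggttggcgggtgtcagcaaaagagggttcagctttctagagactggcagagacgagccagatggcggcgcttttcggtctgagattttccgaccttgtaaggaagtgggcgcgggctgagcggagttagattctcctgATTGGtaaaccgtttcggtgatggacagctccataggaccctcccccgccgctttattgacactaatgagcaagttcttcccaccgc
Emx2 (chr19:59458440-59458689, plus strand): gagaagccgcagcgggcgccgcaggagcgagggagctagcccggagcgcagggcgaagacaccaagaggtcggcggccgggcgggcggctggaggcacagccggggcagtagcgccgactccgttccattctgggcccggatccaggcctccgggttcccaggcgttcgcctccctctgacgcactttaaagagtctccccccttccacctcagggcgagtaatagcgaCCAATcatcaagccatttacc
Tbx4 (chr11:85896515-85896764, plus strand): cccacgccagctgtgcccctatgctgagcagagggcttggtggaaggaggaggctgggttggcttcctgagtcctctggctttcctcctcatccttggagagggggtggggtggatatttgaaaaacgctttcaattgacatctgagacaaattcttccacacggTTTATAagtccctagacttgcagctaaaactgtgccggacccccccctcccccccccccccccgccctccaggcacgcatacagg
The Tbx18 and Emx2 stretches hold 15 and 24 CpG pairs, with 54.0% and 67.2% G and C bases. The Tbx4 stretch holds 6 CpG pairs with 58.4%, and the medians over 32851 promoters of this length were 6 pairs and 52.4%. A CCAAT box (CCAAT or ATTGG) occurs once in each of the Tbx18 and Emx2 stretches, as in 33.8% of promoters. A TATA box (TATAAA or TTTATA) occurs in that of Tbx4, as in 12.4%. The core of the T-box site (GGTGTG or CACACC), held by 16.3% of promoters, occurs in none of the 3, nor in that of Hand2. These are matches of letters and not sites of binding.

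Of 11 other T-box genes, 4 were measured in each comparison, and 1 was called. Tbx1, which acts in the pharynx and the outflow tract of the heart, was 2.74 ± 0.00 higher in G1KO. In the G2KO pair it was not measured. Eomes, Tbx6 and Mga were measured in both comparisons and not called. Tbx20, a cardiac factor, was above background in the G2KO pair alone, where its level was 9.74 in WT and 9.26 in the RNA labelled G2KO. The WT of the G2KO pair exceeded that of the G1KO pair at least 13.6-fold in Tbx20. Tbx6 was 1.36 lower on the log2 scale in the WT of the G1KO pair than in that of the G2KO pair.

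Among paralogs of the remaining genes, Pitx3 and Emx1 were measured in both comparisons and not called. Pitx3 had log2 ratios of -0.01 ± 0.04 for G1KO and -0.38 ± 0.05 for the RNA labelled G2KO, and Emx1 had 0.03 ± 0.04 and 0.01 ± 0.13. Hand1, which acts beside Hand2 in heart and limb, was not above background in any culture.

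In the limb-field list (27 genes of limb outgrowth, Hedgehog signalling and limb patterning, 26 on the array), 19 were measured in the G1KO comparison and 17 in that of the RNA labelled G2KO. In G1KO, 2 were higher and 1 was lower, with a median log2 ratio of 0.37. Hoxc10, a posterior Hox gene, was higher by 1.52 ± 0.04, Msx2 was at least 2.39-fold higher, and the growth factor Bmp4 had -1.40 ± 0.04. A further measured Hoxc10 probe was not called. In the RNA labelled G2KO, 1 was higher and 4 were lower, with a median of -0.02. Msx2 was 2.78 ± 0.08 higher, while Bmp4 had -3.06 ± 0.06, Fgf10 -2.49 ± 0.08, Prrx1 -2.03 ± 0.06 and the BMP antagonist Grem1 -1.58 ± 0.11. A further measured Prrx1 probe was not called, while the rest were lower. Bmp4 and Msx2 therefore passed 2-fold in the same direction in both comparisons. Hoxc10 was above background in the G1KO pair alone, as Pitx1 and Hand2 were. Shh, Isl1, Gli1, Hoxa13, Hoxd12 and Hoxd13 were not above background in any culture.

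**Figure D3:**
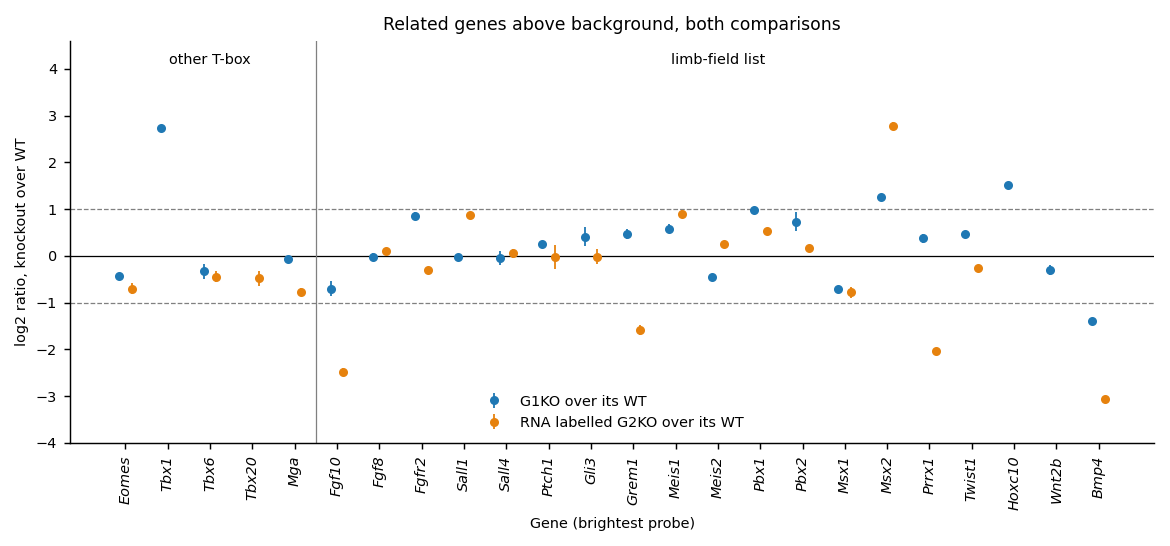
log2 ratio of knockout over WT (vertical axis) of the measured genes among the other T-box genes and the limb-field list, for G1KO (blue) and the RNA labelled G2KO (orange). Points are means of 2 arrays, bars their SD, and dashed lines mark 2-fold. Tbx1 is high in G1KO, whereas Msx2 is above 2-fold and Bmp4 below it in both.

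The heart and epicardium list had 13 genes, of which 11 were measured in G1KO, with 2 higher, 4 lower and a median of -0.41. Aldh1a2, which makes retinoic acid, was higher by 2.89 ± 0.11 and Mef2c by 1.18 ± 0.11. Myl7 had -3.71 ± 0.18, Wt1 -3.04 ± 0.13, Nppb -1.90 ± 0.02 and Gata6 -1.49 ± 0.12. Myl7 is an atrial myosin light chain, Nppb a natriuretic peptide, and Wt1 a factor of mesothelium, epicardium and kidney. In the RNA labelled G2KO, 5 were measured, with Gata6 2.62 ± 0.07 higher, Mef2c at -2.08 ± 0.06 and a median of -0.26. Myl7, Wt1 and Aldh1a2 were not above background in either culture of that pair. In each comparison a further measured Gata6 probe was not called.

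The urogenital and kidney list had 13 genes, with 9 measured in G1KO, 3 higher, 2 lower and a median of 0.40. Hoxa11, a Hox gene of limb and kidney, was higher by 3.90 ± 0.04, Eya1 by 1.62 ± 0.02 and Osr1 by 1.37 ± 0.06. Wt1 and Gata3 (-1.36 ± 0.03) were lower. A further measured Eya1 probe was not called. For the RNA labelled G2KO, Osr1 was higher by 1.63 ± 0.04. At its brighter probe Osr1, a factor of early kidney and lateral mesoderm, passed 2-fold in the same direction in both. Its other probe did so for the RNA labelled G2KO alone. The list of 8 genes known as targets of repression by Tbx2 or Tbx3 was fully measured in G1KO, where 0 were higher, 1 was lower and the median was -0.31. The member called there was Gja1, a gap junction gene, at -1.85 ± 0.09. In the RNA labelled G2KO, 7 were measured with a median of -0.26, and Cdkn1a was 2.75 ± 0.13 higher while Cdkn2a had -3.44 ± 0.32. Both encode cell cycle inhibitors. In G1KO these had -0.77 ± 0.07 and 0.96 ± 0.00, short of 2-fold.

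For Pitx1, Tbx3 and Tbx18, which had the widest ranges of level over the 4 cultures (7.58, 2.99 and 2.07), the genes with the most similar levels were sought among 26728 probes. Likeness was the Euclidean distance of centred log2 levels over the 8 channels, which come from 4 cultures on 4 arrays and are not independent points. Hoxc9, a Hox gene of the trunk and posterior limb field, was nearest to Pitx1 at a distance of 0.51, followed by Clca3a1 at 1.04 and the peptide hormone gene Cck at 1.1. Hoxc9 had levels of 11.24, 13.19, 5.94 and 6.03 in the WT of the G1KO pair, G1KO, the WT of the G2KO pair and the RNA labelled G2KO. It was thus bright in the same pair as Pitx1 and at background in the other. Tbx3 had Ank3, a membrane adaptor gene, at 1.02, Chst1 at 1.47 and Npnt at 1.49 as its nearest. These distances are larger relative to the range of Tbx3 than those of Tbx18, for which 6430548M08Rik was at 0.49, Aldh6a1 at 0.60 and Cdkl2 at 0.61.

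**Figure D4:**
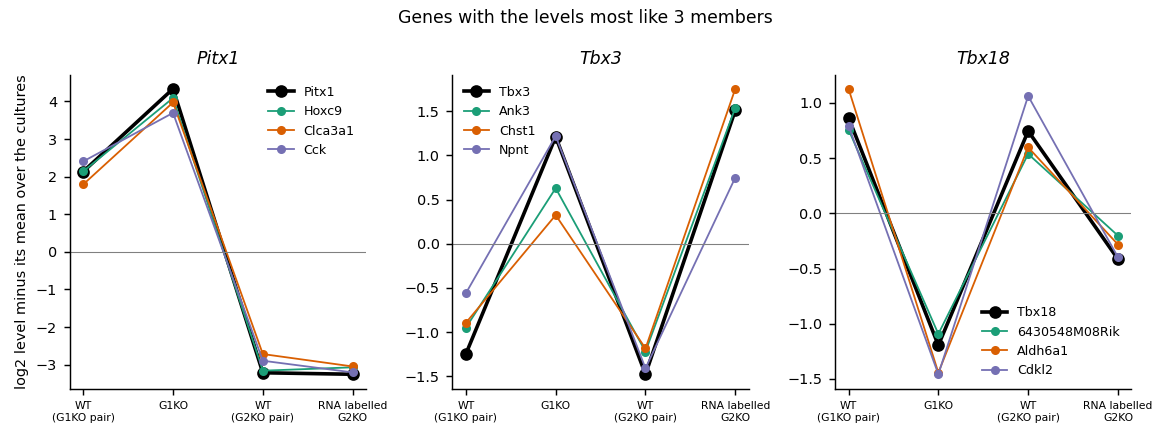
log2 level minus its mean over the 4 cultures (vertical axis) for Pitx1, Tbx3 and Tbx18 (black) and the 3 genes nearest to each, with each point the mean of both dyes in a culture. The vertical scales differ between panels, whose members range over 7.58, 2.99 and 2.07.

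The directions of the called genes did not depend on the processing alternatives that were run. Tbx3 ranged over 2.43 to 2.69 for G1KO and 2.90 to 3.25 for the RNA labelled G2KO. Tbx18 had -2.16 to -2.02 and -1.22 to -1.07, and Pitx1 in G1KO had 2.02 to 2.36. Tbx5 moved most, from 1.14 to 3.32, as its WT was at background. The ratios of Emx2 took either sign, with -0.09 to 0.13 for G1KO and -0.13 to 0.11 for the RNA labelled G2KO.

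**Figure D5:**
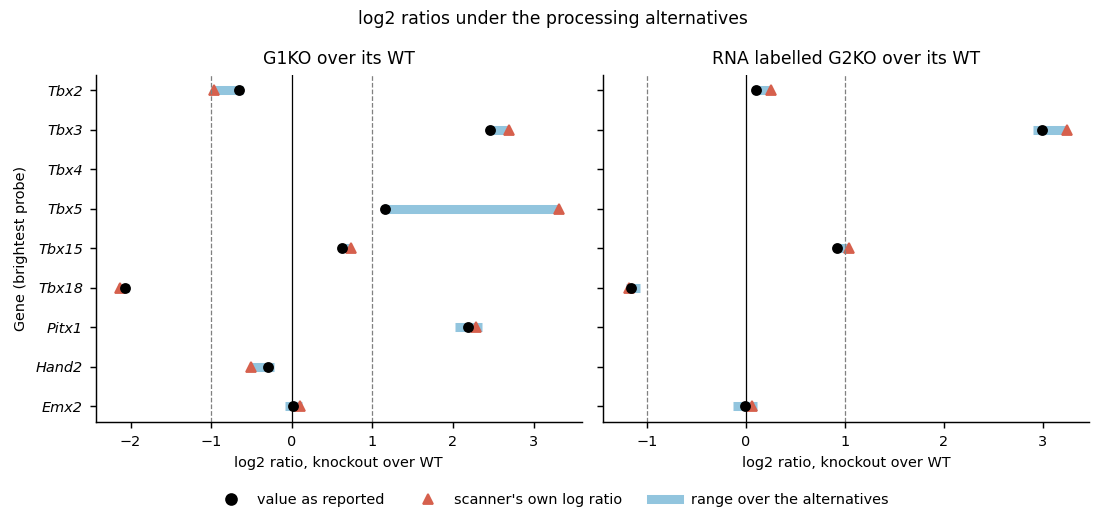
log2 ratio of knockout over WT (horizontal axis) of the brightest probe of each measured gene, as reported (black circle), on the scanner software's own ratio (red triangle) and over all processing alternatives (blue bar). Dashed lines mark 2-fold and genes without a symbol were too dim. Tbx5 has the longest bar, from 1.14 to 3.32, and no bar of a called gene crosses 0.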

How the data were processed

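RNA of 4 MEF cultures was amplified with an oligo-dT primer and hybridised to whole-genome mouse arrays, 4 arrays in 2 dye-swapped pairs. Spots were extracted by the authors with Agilent Feature Extraction (10.5.1.1 in the file headers, 9.1 in the submitters' processing notes). Deposited values are the linear intensity of each spot and its local background, and the software's processed intensity and log10 ratio of the dyes. The deposited series table holds the same log10 ratio, turned to knockout over WT (r = 0.999999 and -0.999999 by dye orientation).

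With limma 3.58.1 in R 4.3.3, mean signals were corrected by normexp (offset 50), control spots and 114 to 203 outlier spots per array were left out, and arrays were normalised by loess. Probe means over both arrays gave the log2 ratios. From the deposited intensities, log2 levels per channel followed after Aquantile normalisation. No spot was saturated, and between 25366 and 27757 gene spots per channel were well above background. The median SD between arrays was 0.082 (G1KO) and 0.081 (G2KO), and their number limits the precision. Both arrays of a pair hold the same extracts and were 1 replicate, so no test was run, and the methods name none. A bound ("at least") sets the mean level of the brighter culture against the mean, over dyes, of the larger of the dim level and the lowest level well above background, and is open to dye bias. The scripts were tested on simulated dye swaps.

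Named were all probes of the 9 genes (the brightest measured probe representing a gene), the called genes of the lists up to the 4 largest per list and comparison, the 3 genes nearest to each of the 3 members of widest range, and the checks. Other list genes named were chosen after their values were seen. Some results of the lists are not reported here. The members and lists were chosen with earlier results of these data known. Alternatives were the software's ratio, the series table, no background correction, an offset of 0, median centring, other filters and thresholds, each array alone, and 2 other normalisations of levels. Names came from RefSeq (GRCm38.p6), through the accession for 24367 probes, the symbol for 6307 and a former symbol for 2425, while 8075 kept the name in the file.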

Additional observations from a re-analysis of the deposited data

Results flagged for a closer look

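Tbx2 had negative log2 ratios on both arrays of the G1KO pair and positive ones on both arrays of the G2KO pair, with a difference of -0.76 between the comparisons. Those of the G2KO pair were small, at 0.13 and 0.07, and with each array centred on its median they were 0.37 and -0.16. The dimmer probe of Emx2 was negative on both arrays of the G1KO pair and not negative on those of the G2KO pair, with a difference of -0.13. With the same centring it read 0.32 and -0.33 in the G1KO pair. These differences were not tested, since each comparison has 1 culture per genotype, and neither gene reached 2-fold in either comparison.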

How the results depend on the processing

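Under the alternatives run, no called gene among the 9 changed direction. In G1KO the 4 called genes became 3 where both genotypes had to be above background or the threshold was 4-fold, each without Tbx5, and 6 at 1.5-fold, which added Tbx2 and Tbx15. For the RNA labelled G2KO the 2 called genes became 1 with median centring and 1 at 4-fold, in each case Tbx3. They became 3 on the scanner's ratio, on the series table and at 1.5-fold, which added Tbx15. Between the WT cultures, the processed signals scaled to their 75th percentile gave 3 genes in place of 2, and moved the difference in Pitx1 from 5.35 to 10.0 and in Hand2 from 1.33 to 3.67. The count of all probes called in G1KO, 1479, was 2855 on the scanner's ratio, 2849 on the series table, 2285 with an offset of 0, 813 with median centring, 385 at 4-fold and 3341 at 1.5-fold. For the RNA labelled G2KO, 1619 became 3396, 3392, 2603, 955, 467 and 3715 in the same order. The cause of these shifts was not tested, except that a threshold moves a count by construction. Dim signals limit Tbx4, Tbx5, Hand2 and, in the G2KO pair, Pitx1 to bounds or to no value. No paired analysis was possible because each genotype has 1 culture.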
